A study of Mus musculus with 6 samples.

Results

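The small RNA and RNA interference machinery was examined as 10 genes, Ago1, Ago2, Ago3, Ago4, Dicer1, Drosha, Dgcr8, Tarbp2, Xpo5 and Tnrc6a, chosen by gene name, and each was found as a single row among the 55450 genes of the table. RNA-seq of polyadenylated RNA was available for 6 samples of C2C12, a mouse skeletal muscle cell line labelled with the strain C57BL/6. In 3 samples the cells received small interfering RNA against Cd36 (siCD36), and in 3 they received control siRNA (siCont). All cells had been transfected with 20 nM siRNA and were used 72 h later, and no untransfected sample was analysed here. The methods list a pair of siCD36 duplexes, and the labels do not say which of them each sample received. The labels call the cells myoblasts and the methods call them myotubes. Separate cultures are not stated for the libraries, and the p-values therefore speak only of the spread among these 6 libraries, and that spread may be technical.

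Small RNAs silence mRNA through a chain of enzymes. In the nucleus, Drosha, an RNase III enzyme, and its RNA-binding partner Dgcr8 form the Microprocessor, which cuts hairpins out of primary microRNA transcripts. Xpo5 (Exportin-5) carries the hairpins to the cytoplasm with the GTPase Ran. There Dicer1, helped by the double-stranded RNA-binding proteins Tarbp2 and Prkra, trims them to short duplexes. An Argonaute protein keeps a single strand of the duplex as its guide, and Tnrc6a (GW182) and its paralogs connect Argonaute to the enzymes that remove the poly(A) tail and the cap of the target. A synthetic siRNA duplex enters at the Argonaute step, and Ago2 is the Argonaute best known in mammals for cutting the target.

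The totals were 67048354 to 71878709 counts with siCD36 and 56907806 to 60566530 with siCont. Cd36 had raw counts of 38, 32 and 30 with siCD36 and 1010, 1129 and 1103 with siCont, which leaves 2.61% of the control FPKM. The comparison used edgeR on all 11796 genes whose mean reached 1 FPKM (fragments scaled to gene length and sequencing depth), and every adjusted p below is a Benjamini-Hochberg value over that whole set. SE stands for the standard error of a log2 fold change. Transcripts of myotubes were abundant, and the summed level of 7 myotube markers was 11730, 9402 and 8652 FPKM with siCD36 and 14460, 12740 and 11830 FPKM with siCont, without overlap. In counts scaled to library size, the groups did not overlap in 2 of these 7, Myh3 and Mylpf, against 32.4% of all genes tested. Of the 7, Myh3 passed the test and was lower with siCD36. Acta1 and Mylpf, which make up most of the sum, had log2 fold changes of -0.38 and -0.65 that missed the threshold in edgeR. Mylpf passed DESeq2, and Acta1 did not. Ckm and Mymk had values of -0.54 and -0.17, and Myog and Tnnt3 had values of 0.02 and 0.03, all without a call. The summed level of 5 myoblast markers was also lower, at 794, 630 and 553 FPKM with siCD36 and 1073, 864 and 806 FPKM with siCont, without overlap. Of these 5, Myf5 passed and was higher, while Des, which makes up most of the sum, had a log2 fold change of -0.65 that passed DESeq2 but missed the threshold in edgeR (adjusted p = 0.136), and Myod1 and Itga7 had values of 0.01 and -0.05. The 4 adipocyte markers summed to 0.0673 FPKM or less in every library, the 4 macrophage markers to 0.595 to 1.33 FPKM with Ptprc at 0.00642 FPKM or less, and 3 of 4 endothelial markers had a mean under 0.1 FPKM, while Tek passed the test and was higher with siCD36. The 5 fibroblast markers summed to 108 to 141 FPKM, and none of the 4 tested passed. The part of the muscle markers in the values below was not tested, and in such bulk samples fewer cells of a type and less RNA per cell cannot be told apart.

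Dgcr8 carries in its own mRNA a hairpin of the kind that the Microprocessor cuts, Mir1306. It is shown here because the annotated exons of Dgcr8 and of this microRNA gene share bases. The hairpin is read from the minus strand at chr16:18284239-18284317 (GRCm38), inside the coding sequence in exon 2 of the 14 exons of transcript ENSMUST00000009321. The sequence is from RefSeq (GRCm38.p6), with capitals at the mature arms, and the mature forms follow with capitals at the seed, bases 2 to 8.
Mir1306 hairpin: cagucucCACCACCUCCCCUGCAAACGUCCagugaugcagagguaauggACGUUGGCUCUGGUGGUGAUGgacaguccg
mmu-miR-1306-5p: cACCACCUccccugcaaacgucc
mmu-miR-1306-3p: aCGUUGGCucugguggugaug
The table lists Mir1306 at 1 count in each of the 6 libraries. The same is true of 111 of the 2202 microRNA rows and of Gm24572, another gene inside Dgcr8, and the counting tool is not stated, so this 1 may not be a read that was counted. Mature microRNAs are not measured by libraries of polyadenylated RNA.

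Ago3, Ago1 and Ago4 follow each other on the minus strand of chromosome 4 within 201769 bases, with gaps of 5455 and 20957 bases and no other protein-coding gene between them, while Ago2 lies alone on chromosome 15. The 250 bases before the RefSeq start of each gene of the cluster are shown because the levels of these neighbours differed so widely, at means over the 6 libraries of 3.97 FPKM for Ago1, 1.36 FPKM for Ago3 and 0.0586 FPKM for Ago4. The windows are from RefSeq (GRCm38.p6), at chr4:126468584-126468833 for Ago1, chr4:126429543-126429792 for Ago3 and chr4:126533459-126533708 for Ago4, all read from the minus strand. By the coordinates of the table, the last 14 bases of the Ago3 and Ago4 windows lie inside the gene. Capitals mark the GC box (GGGCGG) and the CCAAT box (CCAAT), each searched on both strands, and overlapping GC boxes run together.
Ago1: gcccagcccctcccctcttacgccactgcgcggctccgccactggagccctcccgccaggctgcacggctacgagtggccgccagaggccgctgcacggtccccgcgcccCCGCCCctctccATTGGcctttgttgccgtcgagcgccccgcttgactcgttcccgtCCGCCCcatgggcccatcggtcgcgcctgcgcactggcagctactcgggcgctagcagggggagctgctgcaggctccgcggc
Ago3: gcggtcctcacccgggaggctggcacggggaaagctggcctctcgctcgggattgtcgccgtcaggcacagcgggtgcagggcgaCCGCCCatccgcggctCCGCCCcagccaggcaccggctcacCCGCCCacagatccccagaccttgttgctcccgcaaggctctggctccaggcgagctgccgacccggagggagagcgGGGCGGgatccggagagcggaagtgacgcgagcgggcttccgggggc
Ago4: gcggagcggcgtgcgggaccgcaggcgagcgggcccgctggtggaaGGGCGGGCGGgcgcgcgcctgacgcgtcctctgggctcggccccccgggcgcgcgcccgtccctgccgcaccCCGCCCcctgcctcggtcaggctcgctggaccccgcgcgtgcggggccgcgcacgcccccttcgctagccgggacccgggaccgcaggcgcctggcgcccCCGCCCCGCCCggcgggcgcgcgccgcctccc
The window of Ago1 held 2 GC boxes and 1 CCAAT box, that of Ago3 held 4 GC boxes and that of Ago4 held 5, and none of the 3 held TATAAA. Among 32851 windows of this length, 32.7% held a GC box, 33.9% a CCAAT box and 12.4% TATAAA. The number of CpG dinucleotides was 28, 27 and 46 in the order shown, where the median of all windows was 6. The least expressed gene of the cluster thus had the window richest in CpG, but all 3 windows ranked high in CpG among all windows, at percentiles 93.2, 92.4 and 99.8. A relation of these windows to the levels was not tested. Of the 10 genes, 9 had a window in the RefSeq table, and the exception was Ago2. Ago1 had 2 entries there, and the window of 1 is shown.

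None of the 9 genes that reached 1 FPKM passed the test in edgeR (0 of 9, against 5.26% of all genes tested). An unadjusted p under 0.05 was reached by 1 of the 9, Ago2 (25.4% of all genes tested), and DESeq2 called the same 1 gene (14.2% of all genes tested). Log2 fold changes ran from -0.36 for Tnrc6a to 0.18 for Ago3, with 7 of 9 below 0 and a median of -0.18. Of all genes tested, 49.5% lay below 0, and their median was 0.00. Without regard to sign, the median log2 fold change of all genes tested was 0.18. The 95% intervals of the 9 genes lay between -0.76 and 0.48, so that no interval reached a change of 1 on the log2 scale. Ago4, below 1 FPKM, was not among the genes tested.

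**Figure D1:**
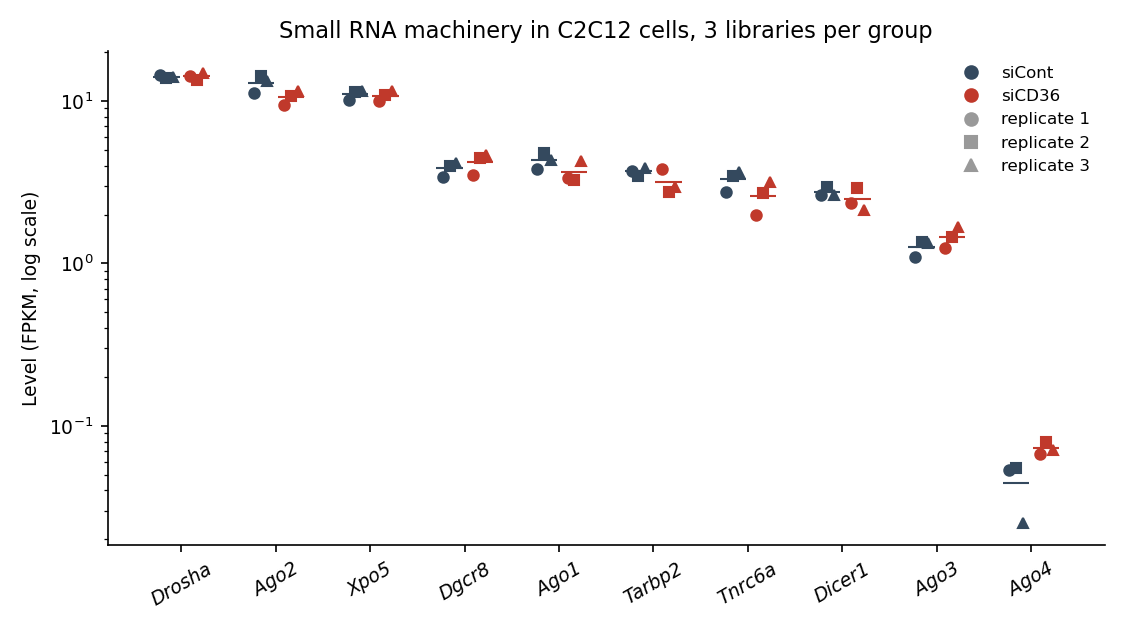
Level of each of the 10 genes in FPKM (log axis) in 3 siCont and 3 siCD36 libraries, with a line at each group mean. Drosha, Ago2 and Xpo5 sit above 9 FPKM in every library, Ago4 sits below 0.1 FPKM, and the groups overlap in every gene except Ago4.

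The order of the levels, as means over the 6 libraries, was Drosha (14.2 FPKM), Ago2 (11.7), Xpo5 (10.9), Dgcr8 (4.03), Ago1 (3.97), Tarbp2 (3.42), Tnrc6a (2.96), Dicer1 (2.61), Ago3 (1.36) and Ago4 (0.0586 FPKM). The ranges over the libraries did not overlap between Xpo5 and Dgcr8, between Dicer1 and Ago3, or between Ago3 and Ago4. All other neighbours in this order overlapped, and Dgcr8 exceeded Ago1 in only 3 of 6 libraries.

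Drosha (ENSMUSG00000022191, chromosome 15 from 12824815 to 12935291) was the most abundant of the 10 per length. Its level was 14.2, 13.6 and 14.8 FPKM with siCD36 and 14.4, 13.9 and 14.1 FPKM with siCont, and the siCont values all lay within the range of the siCD36 values. Its log2 fold change was -0.02 (SE 0.0684, 95% interval -0.19 to 0.14, edgeR adjusted p = 0.865). Dgcr8 (ENSMUSG00000022718, chromosome 16 from 18253948 to 18289246) was at 3.52, 4.47 and 4.63 FPKM with siCD36 and 3.39, 3.98 and 4.18 FPKM with siCont. The first library of each group was the low one, and the groups overlapped. The log2 fold change of Dgcr8 was 0.10 (SE 0.115, interval -0.18 to 0.37, edgeR adjusted p = 0.652), and it ran from 0.03 without siCD36 replicate 3 to 0.19 without siCD36 replicate 1. Dgcr8 shares 825 exon bases with Trmt2a on the opposite strand (1605 to 2006 counts), so that without a stated strand setting some of its reads may belong to that gene. The ratio of Drosha to Dgcr8 in FPKM was 3.43 ± 0.537 with siCD36 and 3.70 ± 0.472 with siCont (SD, n = 3).

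The RNA helicases Ddx5 and Ddx17, which bind the Microprocessor, were more abundant per length than Drosha. Ddx5 was at 146, 164 and 177 FPKM with siCD36 and 133, 137 and 144 FPKM with siCont. The groups did not overlap, but the difference of 0.21 on the log2 scale (SE 0.0772) missed the threshold (edgeR adjusted p = 0.162). Ddx17 had a mean of 52.5 FPKM and a log2 fold change of 0.09 (edgeR adjusted p = 0.585). Of 11 listed cofactors of the Microprocessor, 0 passed edgeR (5.26% of all genes tested) and 3 passed DESeq2 (14.2% of all genes tested). Of these 11, 9 had a value above 0, with a median of 0.21, where 49.5% of all genes tested lay below 0. In 6 of the 11 the CPM (counts scaled to library size after TMM) of the groups did not overlap, against 32.4% of all genes tested.

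Xpo5 (ENSMUSG00000067150, chromosome 17 from 46202782 to 46243598) was at 10.1, 10.9 and 11.5 FPKM with siCD36 and 10.2, 11.3 and 11.5 FPKM with siCont. The values of the groups interleave, and the interval of the difference was the narrowest of the 9 genes tested. The log2 fold change was -0.06 (SE 0.0650, interval -0.21 to 0.10, edgeR adjusted p = 0.636), and it lay between -0.09 and -0.02 with a library left out. Ran, whose GTP-bound form loads the exporter, had a mean of 96.4 FPKM and a log2 fold change of -0.11 (interval -0.31 to 0.09, edgeR adjusted p = 0.448). None of the 4 genes listed for nuclear export and Ran passed, and their median was 0.08.

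Dicer1 (ENSMUSG00000041415, chromosome 12 from 104687742 to 104751952) was at 2.36, 2.93 and 2.14 FPKM with siCD36 and 2.65, 2.95 and 2.63 FPKM with siCont. Of the siCD36 libraries, 2 lay below all siCont libraries and 1 lay among them. Its log2 fold change was -0.18 (SE 0.130, interval -0.49 to 0.13, edgeR adjusted p = 0.439), and it ran from -0.31 without siCD36 replicate 2 to -0.07 without siCD36 replicate 3. Tarbp2 (ENSMUSG00000023051, chromosome 15 from 102518192 to 102523676), which holds Dicer1 to its substrate, was at 3.79, 2.74 and 2.95 FPKM with siCD36 and 3.69, 3.47 and 3.89 FPKM with siCont. Here too 2 siCD36 libraries were low and the first stood with the siCont libraries. The log2 fold change of Tarbp2 was -0.25 (SE 0.154, interval -0.62 to 0.12, edgeR adjusted p = 0.358), and it ran from -0.42 without siCD36 replicate 1 (edgeR adjusted p = 0.0591) to -0.16 without siCD36 replicate 2 (edgeR adjusted p = 0.656), the lowest and highest adjusted p of 15 alternatives. Prkra, the other double-stranded RNA-binding partner of Dicer1, had a mean of 15.8 FPKM and a log2 fold change of 0.00 (interval -0.17 to 0.17, edgeR adjusted p = 0.991).

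**Figure D2:**
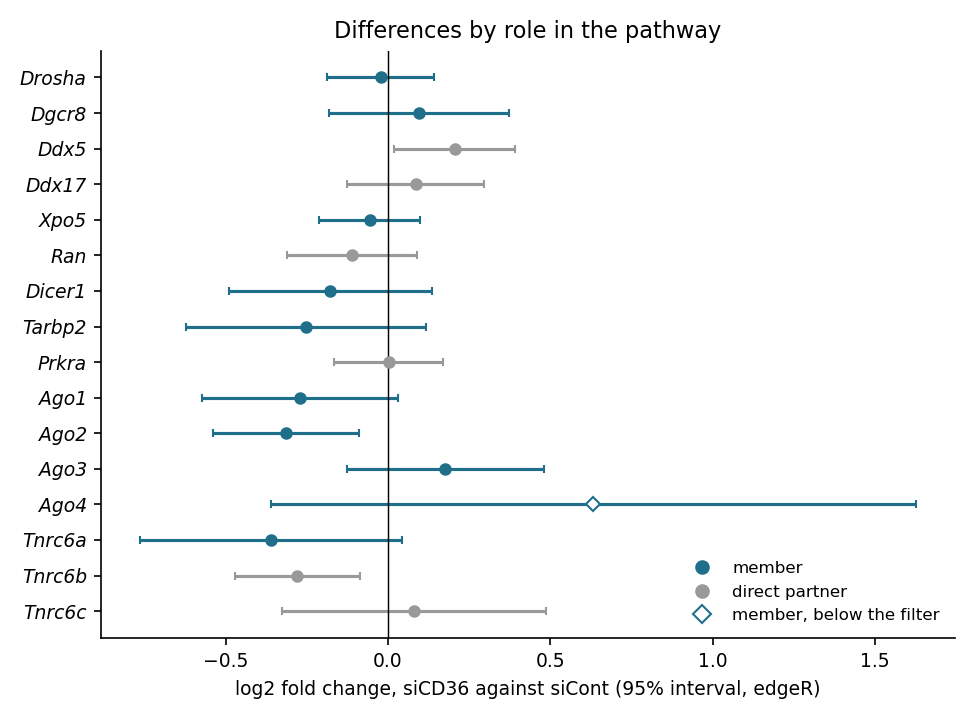
Log2 fold change of siCD36 against siCont with its 95% interval from edgeR for the 10 genes and 6 direct partners, ordered by step of the pathway. Intervals of Ago2, Tnrc6b and Ddx5 leave out 0 before adjustment over all genes, and that of Ago4, from a fit without the filter on low values, is the widest at -0.36 to 1.63.

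Among the Argonautes, Ago2 had the lowest unadjusted p of the 10 genes. Ago2 (ENSMUSG00000036698, chromosome 15 from 73095844 to 73184935) was at 9.49, 10.8 and 11.5 FPKM with siCD36 and 11.2, 14.2 and 13.2 FPKM with siCont. In FPKM the highest siCD36 library lay above the lowest siCont library. In CPM the groups were apart, at 153, 168 and 179 with siCD36 and 188, 226 and 207 with siCont. Groups apart in CPM were seen in 1 of the 9 genes tested, Ago2, against 32.4% of all genes tested. The log2 fold change was -0.31 (SE 0.0930, interval -0.54 to -0.09), with an unadjusted p = 0.0132 and an edgeR adjusted p = 0.104. Over 16 alternative fits its adjusted p ran from 0.0454, in DESeq2, to 0.272, and DESeq2 was the only fit in which it passed. Ago2 shares 219 exon bases with Chrac1 on the opposite strand (2441 to 3363 counts), and its own counts were 10028 to 13550.

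Ago1 (ENSMUSG00000041530, chromosome 4 from 126435012 to 126468583) was at 3.37, 3.26 and 4.30 FPKM with siCD36 and 3.82, 4.78 and 4.31 FPKM with siCont. Its log2 fold change was -0.27 (SE 0.125, interval -0.57 to 0.03, edgeR adjusted p = 0.235). Ago3 (ENSMUSG00000028842, chromosome 4 from 126331704 to 126429556) was at 1.24, 1.46 and 1.67 FPKM with siCD36 and 1.09, 1.36 and 1.34 FPKM with siCont. Its value was above 0 where those of Ago1 and Ago2 were below, at 0.18 (SE 0.126, interval -0.13 to 0.48, edgeR adjusted p = 0.432), and it ran from 0.08 without siCD36 replicate 3 to 0.27 without siCD36 replicate 1. The groups of Ago1 and of Ago3 each overlapped.

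Ago4 (ENSMUSG00000042500, chromosome 4 from 126489541 to 126533472) was barely detected. It had 36, 43 and 40 counts with siCD36 and 26, 26 and 12 counts with siCont. In FPKM this was 0.0673, 0.0797 and 0.0707 against 0.0536, 0.0549 and 0.0254, without overlap. In a fit without the filter on low values its log2 fold change was 0.63 (SE 0.42, interval -0.36 to 1.63, edgeR adjusted p = 0.482), the widest of all 10 genes.

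The Argonaute shares were taken as the percent that each gene made up of the summed FPKM of Ago1 to Ago4. Ago2 made up most of the sum in every library, at 67.0%, 69.1% and 65.6% with siCD36 and 69.3%, 69.7% and 69.9% with siCont. All siCD36 values lay below all siCont values. The means were 67.2 ± 1.77% and 69.7 ± 0.302% (SD, n = 3), a difference of -2.41 percentage points (exact permutation test, 2-sided, p = 0.1, adjusted p = 0.133 over the 4 genes). The share of Ago3 was 8.78%, 9.40% and 9.53% with siCD36 and 6.75%, 6.64% and 7.11% with siCont. The groups did not overlap, with means of 9.24 ± 0.405% and 6.84 ± 0.245% (SD, n = 3) and a difference of 2.40 percentage points (exact permutation test, 2-sided, p = 0.1, adjusted p = 0.133).

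The share of Ago4 was 0.475%, 0.512% and 0.402% with siCD36 and 0.331%, 0.269% and 0.134% with siCont, also without overlap (difference 0.22 percentage points, exact permutation test, 2-sided, p = 0.1, adjusted p = 0.133). Ago1 made up 23.8%, 20.96% and 24.5% with siCD36 and 23.6%, 23.4% and 22.8% with siCont, and its groups overlapped (difference -0.21 percentage points, exact permutation test, p = 1). With 3 samples against 3, 0.1 is the smallest p that this test can give, so no share could pass 0.05, and shares of a whole are bound to each other. The summed level of the 4 genes was 14.2, 15.6 and 17.6 FPKM with siCD36 and 16.2, 20.4 and 18.9 FPKM with siCont. The highest siCD36 library lay above the lowest siCont library (difference -2.74 FPKM, exact permutation test, 2-sided, p = 0.2).

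**Figure D3:**
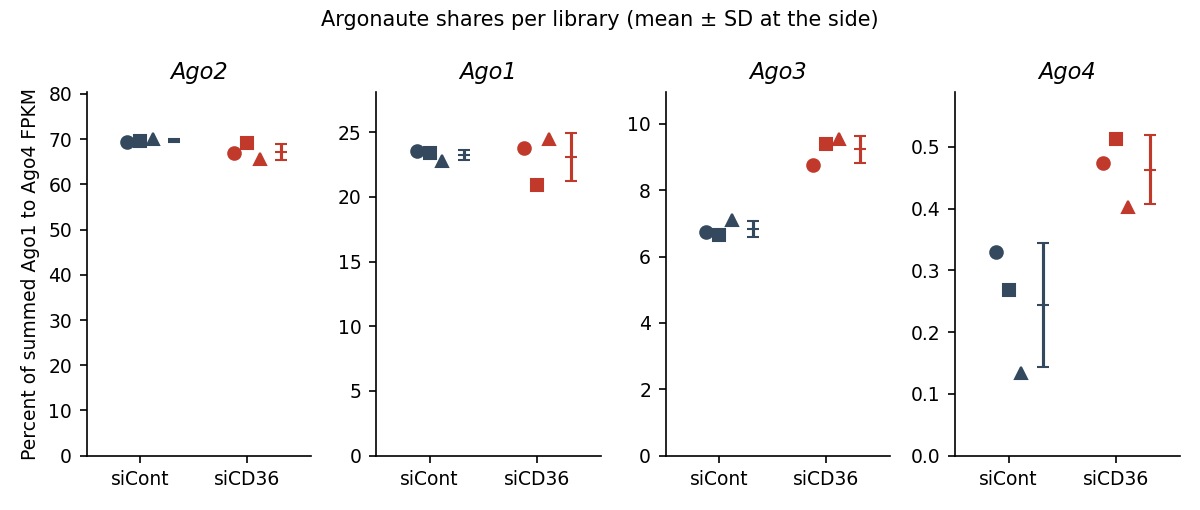
Percent of the summed FPKM of Ago1 to Ago4 held by each gene in 3 siCont and 3 siCD36 libraries, with the mean ± SD beside the points and a separate axis from 0 in each panel. Ago2 holds 65.6% to 69.9% in all libraries, and the siCD36 points of Ago3 (8.78% to 9.53%) lie above all siCont points (6.64% to 7.11%).

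Tnrc6a (ENSMUSG00000052707, chromosome 7 from 123123885 to 123193987) had the largest difference of the 9 genes tested and also the widest interval. It was at 1.99, 2.71 and 3.16 FPKM with siCD36 and 2.77, 3.44 and 3.66 FPKM with siCont, and the groups overlapped. The log2 fold change was -0.36 (SE 0.168, interval -0.76 to 0.04, edgeR adjusted p = 0.238), and it ran from -0.50 without siCD36 replicate 3 to -0.21 without siCD36 replicate 1. Its paralog Tnrc6b was at 3.66, 3.98 and 4.41 FPKM with siCD36 and 4.45, 5.15 and 4.70 FPKM with siCont. The groups of Tnrc6b did not overlap in FPKM or in CPM, and in CPM the same held for 32.4% of all genes tested. Its log2 fold change of -0.28 (SE 0.0797, interval -0.47 to -0.09) missed the threshold in edgeR (edgeR adjusted p = 0.0961). Tnrc6b passed DESeq2 (DESeq2 adjusted p = 0.047), which called 14.2% of all genes tested.

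Tnrc6c, the least abundant paralog, had a log2 fold change of 0.08 (SE 0.169, edgeR adjusted p = 0.806). Of the summed FPKM of the 3 paralogs, Tnrc6a made up 30.3 ± 2.04% with siCD36 and 33.3 ± 1.92% with siCont (SD, n = 3). Tnrc6c made up 20.4%, 23.9% and 23.3% with siCD36 and 17.9%, 17.5% and 19.4% with siCont. The shares of Tnrc6c did not overlap between the groups, and this difference was not tested.

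Beyond the 10 genes, 102 further genes of the pathway were found in the table and 86 were tested. None of the 86 passed edgeR, 24 had an unadjusted p under 0.05, DESeq2 called 13, and in 30 the CPM of the groups did not overlap. These are 0, 24, 13 and 30 of 86, to be read beside 5.26%, 25.4%, 14.2% and 32.4% of all genes tested. The partners of Dicer1 and of the loading of Argonaute, 15 tested, had a median log2 fold change of -0.05. They held the smallest edgeR adjusted p of the lists (0.0526). It was that of Hsp90aa1, which had a log2 fold change of 0.58 and passed DESeq2. The GW182 family and partners of the silencing complex had a median of -0.17 over 14 genes. The genes of deadenylation, decapping and decay, which carry out the silencing of the target mRNA, had a median of 0.05 over 28 genes, and those of small RNA tailing and turnover had a median of 0.07 over 13 genes.

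The PIWI pathway, which silences transposons in the germ line with its own class of small RNAs, was largely at low levels. Of its 13 genes found, 10 had a mean under 0.1 FPKM, and the whole list summed to 2.79 to 3.94 FPKM in each library. Most of the sum came from Tdrkh, a Tudor-domain protein of the mitochondrial surface, at 1.501 to 2.157 FPKM, and from Tdrd9, a helicase with a Tudor domain, at 0.670 to 1.16 FPKM. Tdrkh, with a log2 fold change of 0.01 (edgeR adjusted p = 0.976), was the only gene of the list that was tested. Piwil1 was listed at the floor of 0.0001 FPKM in all 6 libraries.

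**Figure D4:**
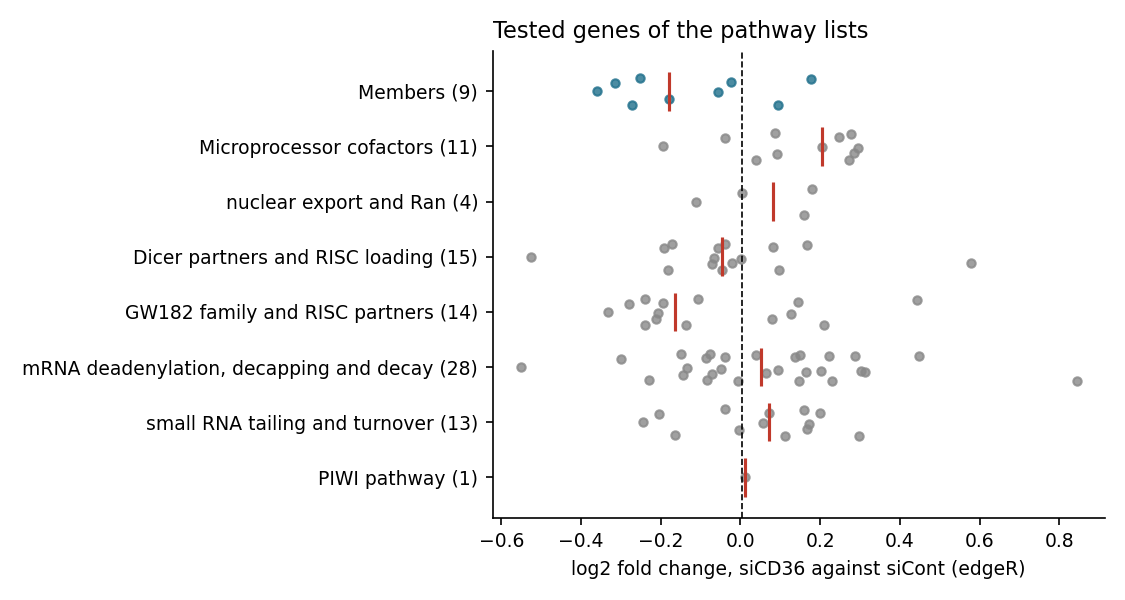
Log2 fold change of siCD36 against siCont from edgeR for the tested genes of each list, 1 point a gene, with the number tested in brackets, a red bar at each median and a dashed line at the median of all tested genes. The points of the 9 members lie between -0.36 and 0.18, and no point in any list passed the adjusted threshold.

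The genes whose pattern over the 6 libraries was most like that of Drosha, the most abundant of the 10 per length, were Bloc1s5, Ptcd1 and Mrps25. Their centred log2 CPM differed from that of Drosha by a root mean square of 0.0191, 0.0217 and 0.0220. Those most like Ago2, the gene with the smallest p, were Smcr8, Serpinb9 and Amotl1, with root mean square differences of 0.0372, 0.0389 and 0.0406. None of these 6 genes passed edgeR's test. They were picked by likeness over these same 6 libraries, so this follows largely from the choice and is not a separate result. Serpinb9 belongs to a family of close paralogs that may share reads.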

How the data were processed

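RNA-seq of 3 siCD36 and 3 siCont samples was analysed, grouped by the sample labels. Paired-end reads had been aligned with HISAT 2.0, and StringTie had given FPKM. The deposited counts are raw whole numbers, left unnormalized by the authors. The deposited FPKM values were scaled to length and depth by the authors, with 0.0001 for genes without reads. For the counting tool, strand setting, annotation and genome build, nothing is named in the sources used here. In all, 52543 of the 55450 genes (94.8%) had the same coordinates in GENCODE M21 (GRCm38), Tnrc6a excepted among the 10.

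Genes whose mean reached 1 FPKM were tested on the raw counts with edgeR 4.0.16 in R 4.3.3 (TMM, glmQLFit, glmQLFTest, condition as the only term) and adjusted by Benjamini-Hochberg over 11796 genes at 0.05. Each SE is the size of the log2 fold change over the square root of F, and intervals use the moderated degrees of freedom. Alternatives were DESeq2 1.42.0, limma 3.58.1 on log2(FPKM + 1) and log2(FPKM + 0.1), limma voom, other scalings and filters, a replicate block, and fits that left out 1 library. The code was tested on simulated data. The members and lists were chosen with earlier results of these data known. The genes named are the 10 members, the direct partners Prkra, Tnrc6b, Tnrc6c, Ddx5, Ddx17 and Ran, Cd36, and the 3 genes nearest in pattern to the most abundant member and to the member with the smallest p. Marker genes, overlapping genes, Hsp90aa1 and genes in the closing section were named after their values were seen. Of 111 listed pathway names 102 matched, and the 9 others are older names or were not matched.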

Additional observations from a re-analysis of the deposited data

How the results depend on the processing

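In all 138 refits of the 9 tested genes, 132 kept the direction and stayed without a call. Drosha, whose value was near 0, turned to 0.0078 with library totals alone, 0.0085 and 0.0090 with limma on log2(FPKM + 1) and log2(FPKM + 0.1), and lay between -0.044 and 0.020 with a library left out. Ago2 passed with DESeq2 (-0.32), and its log2 fold change was -0.38 to -0.25 with a library left out. The members called were 1 with DESeq2 and 0 with each library left out. The pathway genes called were 13 of 86 with DESeq2, against 14.2% of all genes tested. They were 2 with a mean of at least 5 FPKM (Hsp90aa1 and Limd1) and 0 to 5 with a library left out. The 5 of 86 (Hnrnpa1, Fmr1, Limd1, Pabpc4 and Lsm14a) came without siCD36 replicate 1, in a fit that called 1081 of all 11796 genes. Over all genes, 621 calls became 1677 with DESeq2, 515 with a mean of at least 5 FPKM and 327 without a filter. With a library left out they became 20 to 1081: 1081, 20 and 144 without siCD36 replicates 1, 2 and 3, and 76, 33 and 115 without siCont replicates 1, 2 and 3. The causes were not tested, and fits without a library have fewer samples. The difference in the Argonaute share was -3.36 to -1.60 percentage points for Ago2, 2.25 to 2.63 for Ago3 and 0.16 to 0.26 for Ago4 with a library left out, and for Ago1 -0.90 to 0.84, turning to 0.84 without siCD36 replicate 2.

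With the replicate block in edgeR, 199 genes, 0 members and 0 pathway genes were called. The correlations of deviations between same-numbered libraries were 0.128, -0.043 and 0.013. Those between differently numbered libraries ran from -0.106 to 0.107. The main fit did not treat the numbers as pairs, and these values do not settle whether they are. The exact p of the Ago2 and Ago3 shares permuted within numbers was 0.25, the smallest that it can give. Counting error limits Ago4, at 12 to 43 counts, the most.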

Other observations

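In 5 of the 9 tested genes, Ago2, Ago3, Dgcr8, Xpo5 and Tnrc6a, the library numbered 1 had the lowest CPM in both groups, as it had in 18.4% of all tested genes. Adar is an RNA-editing enzyme that acts on double-stranded RNA. Relative to its level, it varied most of the cofactor list among the siCont libraries, at 1.26, 2.96 and 3.72 FPKM. It was at 1.97, 2.27 and 2.80 FPKM with siCD36.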
